A study of Mus musculus with 5 samples.

Results

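The genes described here encode the machinery and regulators of pre-mRNA splicing: SR proteins, heterogeneous nuclear ribonucleoproteins (hnRNPs), U2AF, the SF3A and SF3B complexes, the proteins of the small nuclear ribonucleoproteins (snRNPs) and the PRPF splicing factors. They were taken as every symbol of the expression table that starts with Srsf, Sfrs, Hnrnp, Sf3a, Sf3b, Snrp, U2af or Prpf. That gave 63 of 11643 genes: 10 SR protein genes, 18 hnRNP genes, 2 U2AF genes, 9 SF3A and SF3B genes, 11 snRNP genes and 13 PRPF genes. No symbol started with Sfrs. Relatives such as Hnrnpa1, Snrpn and U2af1l4 were not among the symbols found, so they were not analysed here. Splicing genes under other symbols are given further on as a separate group. Expression was measured by RNA-seq in haematopoietic stem cells (HSCs) of C57BL/6-background mice, gated in bone marrow on absence of lineage markers, presence of c-Kit, Sca-1 and CD150, and absence of CD48. There were 3 libraries from control mice and 2 from mice labelled Tle1/3/4-deficient, which carry floxed Tle1, Tle3 and Tle4 together with Vav-Cre, a recombinase made in all blood cells. For the controls the labels give that word and a tag starting with VavC, which they do not explain, and no genotype. They give neither the age or sex of the mice, nor whether each library came from its own animal. The p-values therefore reflect library-to-library spread alone, and that spread may be technical. TLE proteins are co-repressors that partner transcription factors such as RUNX, TCF/LEF and HES bring to DNA, and the comparison asks how their loss alters HSC gene expression.

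Splicing removes introns from the primary transcript in an ordered assembly. The U1 snRNP marks the start of the intron, U2AF reads the end of it and brings in the U2 snRNP, whose SF3A and SF3B subunits clamp the branch point, and the U4/U6.U5 tri-snRNP, held together by PRPF proteins, then completes the catalytic machine. SR proteins bind exons and favour their inclusion, while hnRNPs coat the transcript and often oppose it. In human blood, SF3B1, SRSF2, U2AF1 and ZRSR2 are recurrently mutated in myelodysplastic syndromes, which arise in HSCs.

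Values are FPKM, fragments scaled by transcript length and by the mapped fragments of the library, so levels of different genes can be compared per length. Throughout, values are listed in the order of replicates 1, 2 and 3 for the controls and 1 and 2 for the deficient-labelled libraries. The column totals were 599137 to 683822 FPKM, and the number of reads behind them is not given in the sources used here. The check of the targeted genes went against the label for Tle3, which stood at 2.48, 4.97 and 5.61 FPKM in controls against 32.3 and 31.6 FPKM in deficient-labelled HSCs. Tle1 stood at 1.83, 0.811 and 3.33 FPKM in controls against 2.84 and 4.37 FPKM in deficient-labelled HSCs, overlapping but also with the higher mean in the latter. Tle4 stood at 5.67, 0.0129 and 5.29 FPKM in controls against 0.353 and 0.203 FPKM in deficient-labelled HSCs. It was lower on average there but overlapped, as control replicate 2 was the lowest library. A gene-level FPKM does not show whether the floxed part of a gene was removed, so these levels cannot decide whether the labels hold. Every direction below therefore rests on the labels. Kit, Slamf1 (CD150) and Ly6a (Sca-1), the genes behind the gate, were expressed in every library, Ly6a lowest in deficient-labelled replicate 2 at 14.0 FPKM, the library in which Cd48, a marker the gate selects against, was highest at 23.4 FPKM. That library also stood apart in other lineages: 16 granulocyte and monocyte marker genes summed to 11.7% of its FPKM total, against 1.74% in deficient-labelled replicate 1 and 0.166% to 0.541% in the controls. The 9 erythroid markers in the table summed to 640 FPKM, against 166 FPKM in deficient-labelled replicate 1 and 40.8 to 73.6 FPKM in the controls. Other lists differed in both deficient-labelled libraries: 12 megakaryocyte and platelet markers summed to 8441 and 3927 FPKM, against 737 to 1510.1 FPKM in the controls, and 14 G2/M genes to 1607 and 1643 FPKM, against 874 to 1178 FPKM. The 12 genes of HSCs and of the gate, a list that includes Cd48, summed to 765 and 600.3 FPKM, against 1015 to 1182 FPKM. Of these, 5 were below every control in both, among them Kit and Cd34. Slamf1 was above every control in both, and the rest overlapped. The part of these shifts in the differences between groups given below was not tested.

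The splicing genes were abundant and steady. Their median level over the 5 libraries was 76.2 FPKM, against 13.1 FPKM for all genes of the table, and 31 of the 63 lay above the 90th percentile of the table. Together they took 1.69%, 1.74% and 1.54% of the FPKM total in the controls and 1.72% and 1.34% in the deficient-labelled libraries, the last value being the lowest. The snRNP genes were the most abundant class, with a median of 216 FPKM, and the PRPF genes the least, with a median of 20.5 FPKM. In 31 of the 63 genes (49.2%) the highest library was under 2 times the lowest, which held for 21.1% of all genes tested. The median SD of log2(FPKM + 1) over the 3 controls was 0.293 for the splicing genes and 0.526 over all genes, and the splicing genes also stood at higher levels. Genes averaging under 1 FPKM were not tested; all 63 stood above that, down to Hnrnpul2 with a mean of 1.13 FPKM.

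**Figure D1:**
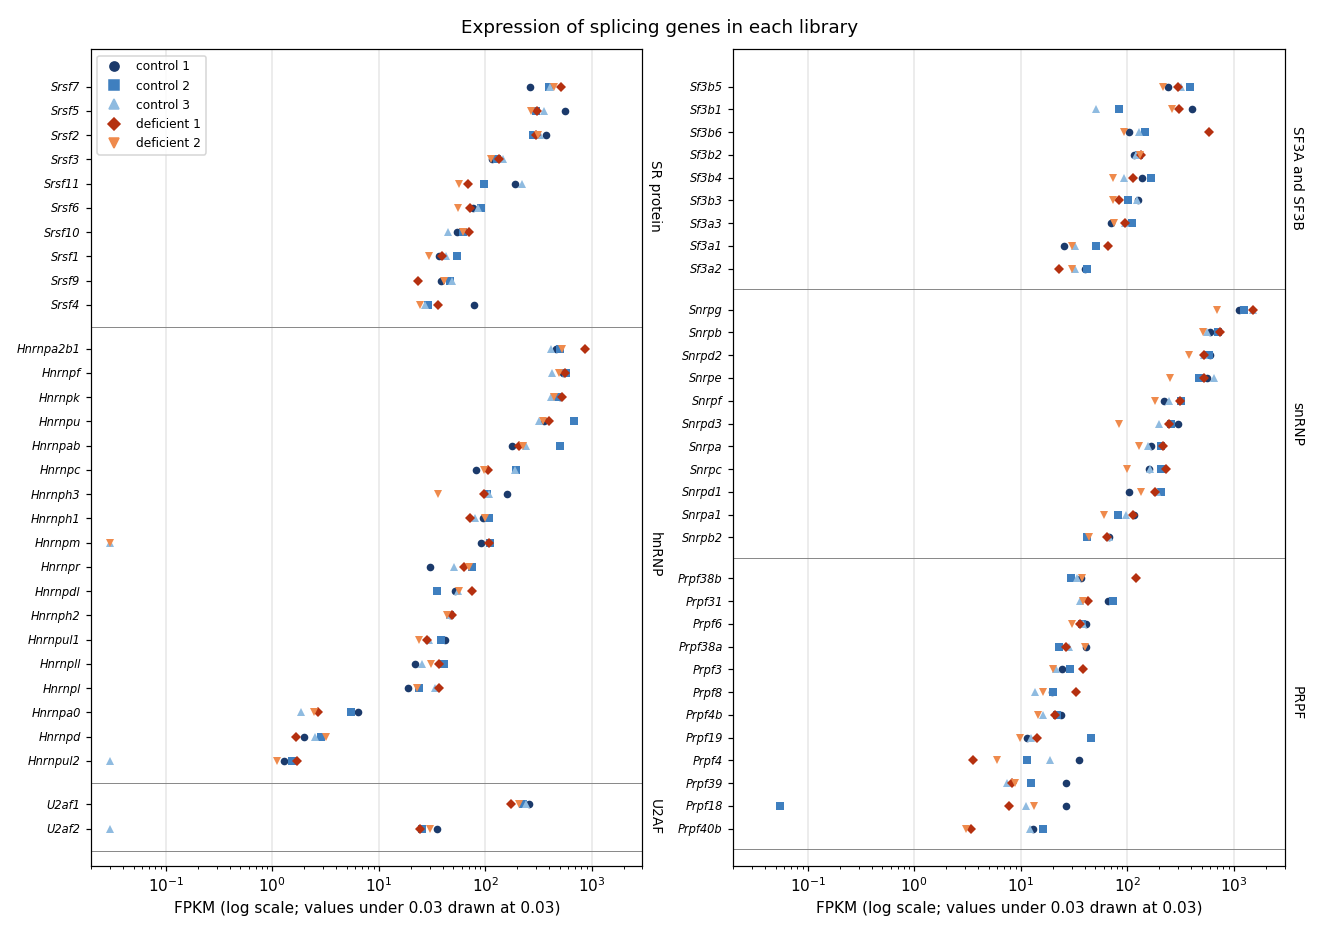
FPKM on a log scale of the splicing genes, 1 row per gene grouped by class and ordered by mean, with 1 marker per library (blue for the 3 controls, red and orange for the 2 deficient-labelled libraries). The markers of most genes lie close together, Snrpg is at the top with 691 to 1520.1 FPKM, and Hnrnpm, Hnrnpul2, U2af2 and Prpf18 each have at least 1 library far to the left.

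No splicing gene differed between the groups past the threshold of 0.05 after adjustment over all 10570 genes tested (limma; lowest adjusted p = 0.439, for Srsf11), where 2 genes (0.0189%) passed over the whole table. At an unadjusted p under 0.05 there were 3 splicing genes, Srsf11, Prpf4 and Prpf40b, all lower in the deficient-labelled libraries; after median-of-ratios scaling there were 2 higher and 3 lower, and without deficient-labelled replicate 2 there were 3 higher and 2 lower. That is 4.76% of the 63, against 8.45% of all genes tested, of which 3.26% were higher and 5.18% lower. The groups did not overlap in 16 splicing genes (25.4%), 6 higher and 10 lower, against 26.1% of all genes tested, of which 10.2% were higher and 15.9% lower. The share of splicing genes whose groups separate was thus close to the background. The median difference in log2(FPKM + 1), deficient-labelled minus control, was -0.16 over the splicing genes and -0.10 over all genes tested, with 42 splicing genes negative and 21 positive. After median-of-ratios scaling, which sets the libraries to a common middle, the medians were -0.03 and 0.02, and 32 splicing genes were negative and 31 positive. The split of non-overlapping splicing genes then became 8 higher and 8 lower, against 1432 higher and 1322 lower of all 10555 genes tested. Without deficient-labelled replicate 2 the median of the splicing genes was 0.06, and without replicate 1 it was -0.31.

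**Figure D2:**
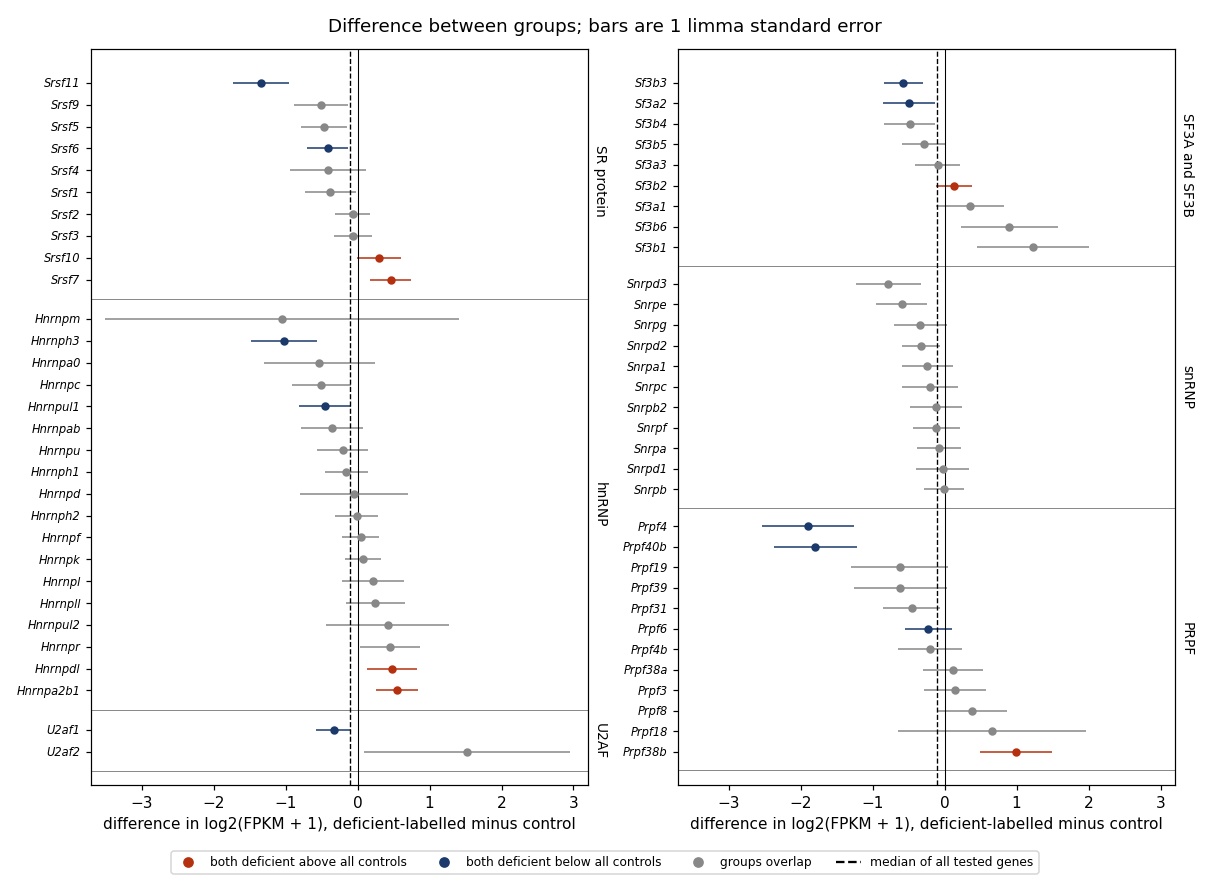
Difference in log2(FPKM + 1) between the deficient-labelled and control libraries for the splicing genes (points) with 1 standard error from limma (bars), coloured by whether the groups separate; the dashed line is the median of all genes tested, -0.10. The 10 blue genes lie below all controls in both deficient-labelled libraries and the 6 red genes above, and the widest bar belongs to Hnrnpm, which is listed at 0 in 2 libraries.

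SR proteins carry an RNA recognition motif and a tail rich in arginine and serine, and bind exonic enhancers. The lowest p among the splicing genes belonged to Srsf11, an SR-related protein that contacts U1 and U2AF at the splice sites. It stood at 189, 97.9 and 221 FPKM in controls against 68.6 and 56.5 FPKM in deficient-labelled HSCs. Both deficient-labelled libraries lay below the lowest control, which was replicate 2. The log2 difference of -1.35, SE 0.39, did not pass (limma, adjusted p = 0.439), and it ran from -1.70 to -1.11 over all alternatives tried. Srsf6, which has 2 RNA recognition motifs like its relatives Srsf4 and Srsf5, also separated downward, at 76.2, 91.3 and 86.5 FPKM in controls against 71.6 and 55.3 FPKM in deficient-labelled HSCs (log2 difference -0.42, SE 0.29; -0.23 without deficient-labelled replicate 2).

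In the other direction stood Srsf7, an SR protein with a zinc knuckle, highest of the class by the mean over all 5 libraries but below Srsf5 in the control mean. It was at 261, 399.9 and 402 FPKM in controls against 515 and 446 FPKM in deficient-labelled HSCs, above every control in both, though control replicates 2 and 3 came close (log2 difference 0.46, SE 0.29; limma, adjusted p = 0.690; 0.26 without control replicate 1). Srsf10, which can act as a splicing repressor, was at 54.8, 61.6 and 44.5 FPKM in controls against 69.9 and 61.7 FPKM in deficient-labelled HSCs, the lower of the latter exceeding the highest control by less than 1 FPKM. Srsf3, the smallest SR protein and the closest relative of Srsf7, showed overlapping groups at 116, 130.0 and 147 FPKM in controls against 136 and 114 FPKM in deficient-labelled HSCs.

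Srsf2 (SC35), a target of mutation in myelodysplasia, was at 369, 280.4 and 325 FPKM in controls against 301 and 314 FPKM in deficient-labelled HSCs, inside the range of the controls. Srsf5 was at 566, 303 and 358 FPKM in controls against 304 and 270.2 FPKM in deficient-labelled HSCs, where control replicate 1 stood well above the rest. The same control was also the high one for Srsf4, at 78.5, 28.8 and 27.3 FPKM in controls against 35.8 and 24.5 FPKM in deficient-labelled HSCs, which gave Srsf4 the largest spread among controls in the class. Srsf1, the first SR protein described, was at 37.2, 54.9 and 42.6 FPKM in controls against 39.1 and 29.4 FPKM in deficient-labelled HSCs, and its close relative Srsf9 at 38.1, 46.7 and 48.4 FPKM in controls against 23.3 and 40.7 FPKM in deficient-labelled HSCs. Each had 1 deficient-labelled library below all controls, replicate 2 for Srsf1 and replicate 1 for Srsf9. Over the 10 SR genes the median log2 difference was -0.39, with 8 negative. It was -0.27 after median-of-ratios scaling with 6 negative, -0.16 without deficient-labelled replicate 2 and -0.17 without control replicate 1.

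The hnRNPs package nascent RNA and regulate splicing, export and stability. By the mean over all 5 libraries Hnrnpa2b1 was the highest of the 18, though below Hnrnpf and Hnrnpk in the control mean. Hnrnpa2b1 was at 465, 505 and 417 FPKM in controls against 857 and 529.8 FPKM in deficient-labelled HSCs. Both deficient-labelled libraries were above the controls, replicate 2 by a small margin. Its log2 difference was 0.55, SE 0.29 (limma, adjusted p = 0.648), and leaving out deficient-labelled replicate 1 gave 0.20, and leaving out replicate 2 gave 0.89. Hnrnpdl, a relative of Hnrnpd, was at 52.3, 35.2 and 56.1 FPKM in controls against 75.9 and 57.2 FPKM in deficient-labelled HSCs, again above the controls in both (log2 difference 0.48, SE 0.35; 0.28 without control replicate 2, and 0.28 without deficient-labelled replicate 1). Hnrnph3 separated downward at 159.9, 105 and 109 FPKM in controls against 98.5 and 35.9 FPKM in deficient-labelled HSCs, with most of the distance in replicate 2 (log2 difference -1.02, SE 0.45; -0.31 without that library, and -1.74 without replicate 1). Hnrnpul1, a relative of the scaffold protein Hnrnpu, was at 42.3, 38.2 and 29.6 FPKM in controls against 28.6 and 24.0 FPKM in deficient-labelled HSCs, with replicate 1 just under the lowest control.

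Other abundant hnRNPs overlapped between the groups. Hnrnpf, which binds runs of G, was at 536, 572 and 425 FPKM in controls against 557 and 489 FPKM in deficient-labelled HSCs. Hnrnpk, which binds C-rich RNA, was at 502, 479 and 412 FPKM in controls against 529.9 and 448 FPKM in deficient-labelled HSCs. In the same F/H family as Hnrnpf, Hnrnph2 had the tightest values of all 63 genes: it was at 46.9, 46.4 and 46.6 FPKM in controls against 49.0 and 43.5 FPKM in deficient-labelled HSCs, so the highest library was 1.13 times the lowest. Hnrnph1 was at 95.9, 109 and 79.5 FPKM in controls against 71.4 and 99.6 FPKM in deficient-labelled HSCs. Control replicate 2 was the high library for Hnrnpu, at 357, 678 and 322 FPKM in controls against 395 and 345 FPKM in deficient-labelled HSCs, and for Hnrnpab, at 177, 502 and 242 FPKM in controls against 207 and 226 FPKM in deficient-labelled HSCs. Hnrnpll, which directs the alternative splicing of the CD45 gene Ptprc in lymphocytes, was at 22.0, 41.1 and 25.3 FPKM in controls against 36.9 and 31.0 FPKM in deficient-labelled HSCs.

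Hnrnpm, a splicing regulator, was listed at exactly 0 in control replicate 3 and in deficient-labelled replicate 2, and at 91.2, 110.3 and 109 FPKM in the other libraries. Hnrnpul2 was also at 0 in control replicate 3, with 1.12 to 1.71 FPKM elsewhere. A value of 0 in such a table can be a failed estimate, so no fold is given for either gene. The low members of the class were Hnrnpa0, at 6.33, 5.48 and 1.88 FPKM in controls against 2.66 and 2.47 FPKM in deficient-labelled HSCs, and Hnrnpd (AUF1), a factor of AU-rich mRNA decay, at 1.996, 2.89 and 2.53 FPKM in controls against 1.67 and 3.18 FPKM in deficient-labelled HSCs. The rest overlapped, Hnrnpc at 82.9, 195 and 189 FPKM in controls against 107 and 97.1 FPKM in deficient-labelled HSCs, Hnrnpr at 30.4, 74.4 and 50.5 FPKM in controls against 63.4 and 70.5 FPKM in deficient-labelled HSCs, and Hnrnpl at 19.0, 23.9 and 33.6 FPKM in controls against 36.7 and 22.8 FPKM in deficient-labelled HSCs. The 18 hnRNP genes had a median log2 difference of -0.03, with 10 negative and 8 positive; after median-of-ratios scaling it was 0.08, with 8 negative and 10 positive. Without deficient-labelled replicate 2 the hnRNP median was 0.10, and without replicate 1 it was -0.10.

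U2AF is a heterodimer in which the large subunit reads the polypyrimidine tract and the small subunit the AG at the end of the intron. U2af1, the small subunit and a target of mutation in myelodysplasia, was at 256, 228 and 241 FPKM in controls against 176 and 209.6 FPKM in deficient-labelled HSCs. Both deficient-labelled libraries were below the lowest control. The log2 difference was -0.33, SE 0.24 and did not pass (limma, adjusted p = 0.729), it was -0.20 without deficient-labelled replicate 1, and the groups overlapped after median-of-ratios scaling or quantile normalization. U2af2, the large subunit, was at 35.2, 25.7 and 0 FPKM in controls against 24.6 and 30.3 FPKM in deficient-labelled HSCs, so its group difference turns on the value of 0 in control replicate 3. In the other 4 libraries U2af1 was listed above U2af2 per length in each.

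SF3A and SF3B together form the part of the U2 snRNP that grips the branch point. Sf3b1, the branch-point clamp and the splicing gene most often mutated in myelodysplasia, was at 407, 84.5 and 50.7 FPKM in controls against 307 and 263 FPKM in deficient-labelled HSCs. The controls spanned from the highest to the lowest of the 5 libraries, and both deficient-labelled values lay inside that span, so no difference could be read from this gene. Sf3b6, the small subunit that touches the branch adenosine, was at 104, 145 and 129 FPKM in controls against 584 and 93.4 FPKM in deficient-labelled HSCs, with deficient-labelled replicate 1 far above all others and replicate 2 below them. Sf3b5, a short subunit and the most abundant of the class, was at 243, 390.0 and 317 FPKM in controls against 301 and 215 FPKM in deficient-labelled HSCs. Sf3b2 varied least among the controls, at 115, 129 and 122 FPKM in controls against 135 and 132 FPKM in deficient-labelled HSCs, and both deficient-labelled libraries lay just above the highest control. The groups of Sf3b2 overlapped after quantile normalization.

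Sf3b3, a large scaffold subunit, separated downward at 126, 102 and 124 FPKM in controls against 83.3 and 73.1 FPKM in deficient-labelled HSCs (log2 difference -0.58, SE 0.27; limma, adjusted p = 0.618). Sf3a2, one subunit of the SF3A trimer, did so at 40.1, 41.5 and 32.1 FPKM in controls against 22.9 and 30.5 FPKM in deficient-labelled HSCs, with replicate 2 just under the lowest control (log2 difference -0.49, SE 0.36; -0.29 without deficient-labelled replicate 1). The groups of Sf3a2 overlapped after median-of-ratios scaling. Its partners overlapped between groups, Sf3a1 at 25.7, 50.8 and 32.3 FPKM in controls against 66.6 and 30.1 FPKM in deficient-labelled HSCs and Sf3a3 at 70.7, 111 and 95.9 FPKM in controls against 95.7 and 75.5 FPKM in deficient-labelled HSCs. Sf3b4, which pairs with Sf3b2, was at 137, 166 and 92.9 FPKM in controls against 113 and 73.7 FPKM in deficient-labelled HSCs, also overlapping. The 9 genes had a median log2 difference of -0.10, 5 negative and 4 positive, and 0.03 after median-of-ratios scaling with 4 negative and 5 positive. Leaving out deficient-labelled replicate 1 gave -0.29, and leaving out replicate 2 gave 0.07.

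Of the 11 snRNP genes, 7 encode the Sm ring (Snrpb, Snrpd1, Snrpd2, Snrpd3, Snrpe, Snrpf and Snrpg) that encircles the small nuclear RNAs. Snrpa and Snrpc belong to the U1 particle, and Snrpa1 and Snrpb2 to U2. Snrpg was the most abundant of all 63 genes, at 1114, 1255 and 1520.1 FPKM in controls against 1501 and 691 FPKM in deficient-labelled HSCs. Snrpb, which encodes SmB and SmB', was at 603, 712 and 558 FPKM in controls against 747 and 511 FPKM in deficient-labelled HSCs. Snrpd2 was at 599, 581 and 521 FPKM in controls against 531 and 382 FPKM in deficient-labelled HSCs, the smallest spread among controls in the class. Snrpe was at 562, 469 and 651 FPKM in controls against 531 and 254 FPKM in deficient-labelled HSCs. In each of these 4, deficient-labelled replicate 1 lay within the range of the controls or, for Snrpb, above it, and replicate 2 was below all of them.

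Snrpd3 was at 297, 259 and 198 FPKM in controls against 244 and 84.5 FPKM in deficient-labelled HSCs, the largest gap between the deficient-labelled libraries in the class. Snrpf was at 219.6, 320.1 and 246 FPKM in controls against 314 and 182 FPKM in deficient-labelled HSCs. Snrpd1 was at 103, 209 and 189.7 FPKM in controls against 184 and 134 FPKM in deficient-labelled HSCs, where control replicate 1 was the lowest library. The U1 protein genes were at 169, 207 and 158 FPKM in controls against 216 and 129 FPKM in deficient-labelled HSCs for Snrpa, and at 161, 206 and 163 FPKM in controls against 234 and 99.0 FPKM in deficient-labelled HSCs for Snrpc. The U2 protein genes were at 116, 82.1 and 96.9 FPKM in controls against 112 and 60.0 FPKM in deficient-labelled HSCs for Snrpa1, and at 68.0, 42.2 and 67.0 FPKM in controls against 64.4 and 43.6 FPKM in deficient-labelled HSCs for Snrpb2. Snrpa and Snrpb2, relatives that bind U1 and U2 RNA, thus differed in level, Snrpa being higher in every library.

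The snRNP genes differed more between the deficient-labelled libraries than between the groups. None of the 11 separated the groups (2 did, downward, after quantile normalization), against 26.1% of all genes tested. All 11 were lower in deficient-labelled replicate 2 than in replicate 1, and 9 of 11 were below every control in replicate 2, against 0 of 11 in replicate 1. Over all 10570 genes tested, 54.1% were lower in replicate 2 than in replicate 1, 3535 were below every control in replicate 2 and 3018 in replicate 1. The median log2 difference between these libraries, replicate 1 minus replicate 2, was 0.78 for the snRNP genes and 0.08 for all genes tested. The 7 Sm genes summed to 3498, 3805 and 3884 FPKM in controls, against 4052 and 2239 FPKM in deficient-labelled HSCs. The fitted group differences of the 11 genes were all negative, with a median of -0.21, but leaving out deficient-labelled replicate 2 gave 0.20, and leaving out replicate 1 gave -0.57. After median-of-ratios scaling 6 of 11 were negative, with a median of -0.08; all 11 were still lower in replicate 2 than in replicate 1, with a median difference of 0.63, and 8 were below every control in replicate 2. Over all 10570 genes the scaled values gave 5083 lower in replicate 2 than in replicate 1, a median difference of -0.01 and 2749 below every control in replicate 2.

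Other measures moved with this gap. The library with low snRNP genes was the one in which granulocyte and monocyte markers took 11.7% of the FPKM total, S100a8 alone 6.28%. Summed immediate early genes were also highest there, at 1850.2 FPKM, against 281 to 346 FPKM in the other libraries. The gap between these libraries also differed by transcript length over the whole table. The snRNP mRNAs had a median of 1161 bases in the GENCODE annotation, and the 653 genes of the whole table with mRNAs under 1000 bases had a median difference of 0.50 between replicates 1 and 2, against 0.02 for genes of 4000 bases and over. Among mRNAs from 1000 to under 2000 bases the median was 0.74 for 5 snRNP genes and 0.14 for all 2251 genes, and under 1000 bases it was 0.92 for 4 snRNP genes. From 2000 to under 4000 bases it was 1.03 for 2 snRNP genes, Snrpd3 and Snrpb2, and 0.03 for all 4176 genes. The snRNP median was above that of all genes in each of these 3 ranges. Each length is that of 1 annotated transcript per gene, the one with the longest coding sequence, which need not be the one expressed. The part of cell composition, of length and of RNA quality in the snRNP gap was not tested. In sorted cells sequenced in bulk, fewer cells of a type and less RNA per cell cannot be told apart.

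**Figure D3:**
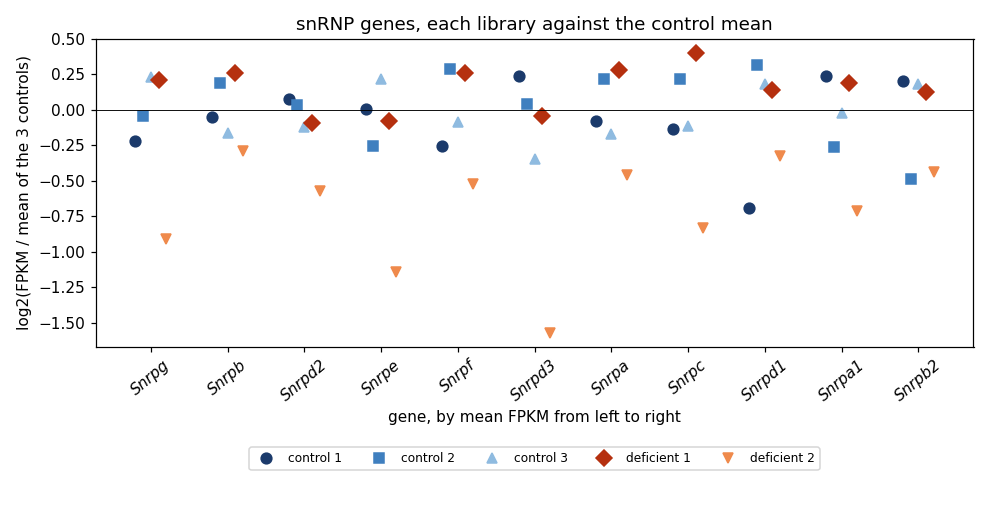
log2 of FPKM over the mean of the 3 controls for the 11 snRNP genes, ordered by mean level, with 1 marker per library. Deficient-labelled replicate 2 (orange) is below deficient-labelled replicate 1 (red) for all 11 genes and below every control for 9 of them, Snrpd1 and Snrpb2 being the exceptions.

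**Figure D4:**
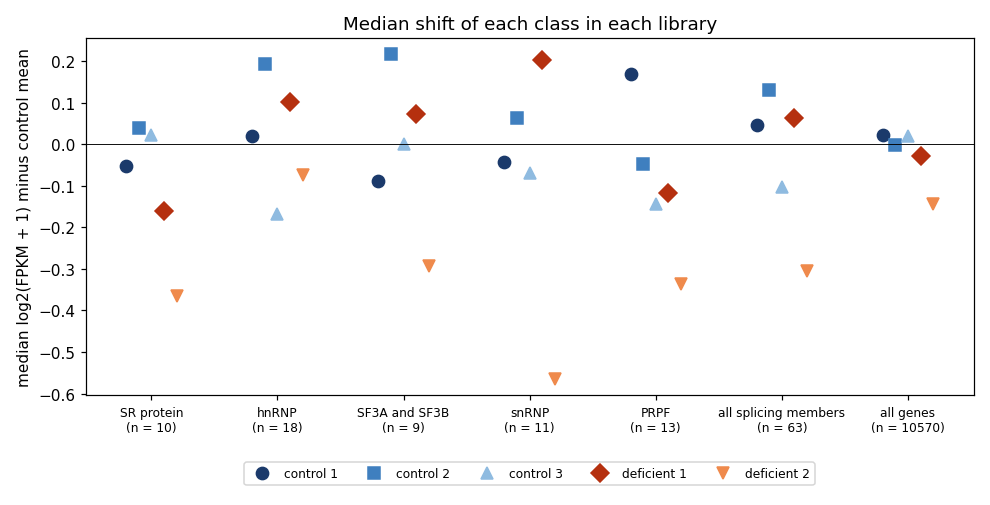
Median over the genes of a class of log2(FPKM + 1) minus the mean of the 3 controls, 1 marker per library, for each class with more than 2 members, all splicing genes and all genes tested. In deficient-labelled replicate 2 the median was -0.57 for the snRNP genes, -0.37 for the SR genes and -0.08 for the hnRNP genes, against -0.14 for all genes.

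PRPF proteins, named after yeast pre-mRNA processing mutants, sit in several particles. Prpf4, a U4/U6 protein, was at 35.6, 11.4 and 19.0 FPKM in controls against 3.54 and 5.93 FPKM in deficient-labelled HSCs. Every control was higher than both deficient-labelled libraries, and control replicate 1 was well above the other controls. Its log2 difference of -1.90, SE 0.64, had an unadjusted p of 0.0190 and did not pass (limma, adjusted p = 0.5002). Prpf40b, a U1-associated protein thought to bridge the splice sites, was at 13.0, 16.1 and 12.3 FPKM in controls against 3.39 and 3.09 FPKM in deficient-labelled HSCs. The groups were tight and apart, the lowest control being 12.3 FPKM and the highest deficient-labelled value 3.39 FPKM. The log2 difference was -1.80, SE 0.58 (limma, unadjusted p = 0.0153, adjusted p = 0.468), and it ran from -2.05 to -1.19 over the alternatives.

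Prpf38b was the class member that separated upward, at 36.7, 29.4 and 33.6 FPKM in controls against 119.7 and 37.3 FPKM in deficient-labelled HSCs, almost wholly through replicate 1 (log2 difference 0.996, SE 0.50; 0.17 without that library, and 1.82 without replicate 2). Prpf6, which bridges the tri-snRNP, was the steadiest of the class and separated downward, at 40.7, 37.6 and 38.4 FPKM in controls against 35.8 and 30.6 FPKM in deficient-labelled HSCs (log2 difference -0.23, SE 0.33; -0.12 without deficient-labelled replicate 2). Prpf8, the core of U5 that cradles the catalytic RNA, was at 19.9, 19.9 and 13.7 FPKM in controls against 32.7 and 16.3 FPKM in deficient-labelled HSCs, with replicate 1 the highest library and replicate 2 inside the controls. Prpf31, a U4 protein, was at 65.9, 73.6 and 36.1 FPKM in controls against 42.6 and 38.4 FPKM in deficient-labelled HSCs. Prpf19, the ubiquitin ligase of its own complex, was at 11.5, 45.4 and 12.5 FPKM in controls against 14.2 and 9.94 FPKM in deficient-labelled HSCs, where control replicate 2 alone was high. Prpf4b, a kinase unrelated to Prpf4, was at 23.7, 21.7 and 16.2 FPKM in controls against 21.0 and 14.6 FPKM in deficient-labelled HSCs. Prpf18, a second-step factor, was at 26.6, 0.0549 and 11.3 FPKM in controls against 7.77 and 13.3 FPKM in deficient-labelled HSCs, so that control replicate 2 alone was near 0. Prpf3, a partner of Prpf4 in U4/U6, was at 24.6, 29.3 and 21.7 FPKM in controls against 38.0 and 20.0 FPKM in deficient-labelled HSCs, Prpf38a at 40.9, 23.0 and 28.5 FPKM in controls against 26.4 and 40.4 FPKM in deficient-labelled HSCs, and Prpf39 at 26.9, 12.4 and 7.43 FPKM in controls against 8.28 and 8.83 FPKM in deficient-labelled HSCs, all overlapping. The 13 PRPF genes had a median log2 difference of -0.20, with 7 negative and 6 positive, and -0.08 after median-of-ratios scaling with the same counts. Leaving out deficient-labelled replicate 2 gave a PRPF median of -0.12, and leaving out replicate 1 gave -0.34.

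The other genes of splicing, listed by role, numbered 156 in the table and were all tested. None passed over all genes (limma, lowest adjusted p = 0.439), and 5 (3.21%) had an unadjusted p under 0.05, against 8.45% of all genes tested. The groups did not overlap in 30 (19.2%), 9 higher and 21 lower, against 26.1% of all genes. By group, non-overlap was seen in 4 of 41 further snRNP, Lsm and U5 genes, 8 of 41 genes of the Prp19 complex, the catalytic step and the exon junction, 16 of 55 regulators and 2 of 19 snRNP assembly genes. Rbm3, a cold-inducible RNA-binding protein, was at 261, 446 and 422 FPKM in controls against 796 and 722 FPKM in deficient-labelled HSCs (log2 difference 1.05, SE 0.30). Ddx39, an RNA helicase of mRNA export, was at 134, 149 and 142 FPKM in controls against 293 and 241 FPKM in deficient-labelled HSCs (log2 difference 0.91, SE 0.25). Both were above all controls in both libraries.

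Lower in both were Sfpq, a paraspeckle protein, at 83.0, 62.0 and 110.1 FPKM in controls against 46.8 and 35.5 FPKM in deficient-labelled HSCs, and Rbmx (hnRNP G), at 61.2, 79.4 and 58.4 FPKM in controls against 40.2 and 27.1 FPKM in deficient-labelled HSCs. Elavl1 (HuR), a stabiliser of AU-rich mRNAs, was at 100.4, 143 and 35.6 FPKM in controls against 29.0 and 32.5 FPKM in deficient-labelled HSCs, where control replicate 3 came close to the deficient-labelled values. None of these 5 passed (limma, adjusted p = 0.439 to 0.580). Zrsr2, the minor-spliceosome partner of U2AF that is mutated in myelodysplasia, was at 7.38, 9.12 and 8.51 FPKM in controls against 8.96 and 4.71 FPKM in deficient-labelled HSCs. Among the most abundant, Lsm7, a subunit of the U6 ring, was at 628, 521 and 733 FPKM in controls against 670.0 and 212 FPKM in deficient-labelled HSCs, again lowest in deficient-labelled replicate 2. Rbm39, a U2AF-related factor, was at 401, 390.4 and 389 FPKM in controls against 433 and 208 FPKM in deficient-labelled HSCs, with the same library lowest. Gemin7, an SMN complex subunit, was at 97.7, 91.6 and 106 FPKM in controls against 114 and 100.4 FPKM in deficient-labelled HSCs, with no such dip. Next by mean in their lists were Lsm4, another ring subunit, at 202, 364 and 240.1 FPKM in controls against 295 and 199 FPKM in deficient-labelled HSCs, Rnps1, an exon junction protein, at 183, 131 and 145 FPKM in controls against 140.0 and 124 FPKM in deficient-labelled HSCs, and Strap, which works with the SMN complex, at 94.7, 64.5 and 68.2 FPKM in controls against 179.8 and 90.5 FPKM in deficient-labelled HSCs. All 41 further snRNP, Lsm and U5 genes had a median of 0.44 for replicate 1 minus replicate 2, and 31 of the 41 were lower in replicate 2.

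Gene-level FPKM does not separate isoforms, which matters for this family because SR and hnRNP genes limit their own products through transcripts that are spliced into targets of nonsense-mediated decay. In GENCODE release M21 an annotated decay transcript was found for 9 of 10 SR genes, 2 of 2 U2AF genes, 9 of 18 hnRNP genes, 7 of 13 PRPF genes, 4 of 11 snRNP genes and 1 of 9 SF3A and SF3B genes. That is 50.8% of the 63, against 30.0% of the tested genes that matched by symbol. Near-identical copies are a second source of uncertainty. For 19 of the 63 genes, another annotated gene matched at 95% identity or more over at least 50% of the coding sequence, and for 18 of them a pseudogene was among the matches. These include 7 of 11 snRNP genes, with 3 pseudogene matches each for Snrpg and Snrpc, both U2AF genes, Hnrnpf with 5, and Srsf3 with 3. How reads were shared between such copies is not given in the sources used here. Of the genes that separated the groups, U2af1 and Srsf10 have such copies. Hnrnph3, Prpf6, Prpf40b, Sf3b3 and Sf3a2 overlap another protein-coding gene in this later annotation, and whether counting used strand is not given in the sources used here. Copies and overlaps were searched for the 63 genes only, so neither can be called particular to splicing genes.

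The start regions of the splicing genes were read from RefSeq sequences on build GRCm38.p6, a later build than mm9, which the submitters' processing notes name for the expression table. Of the 63 genes, 54 matched by symbol, and the 250 bases before each annotated start were searched on both strands. The motifs were GGGCGG (GC box), CCGGAAG (ETS core), TGTGGT (RUNX core), CTTTGA (TCF/LEF core) and CACGTG (E-box of basic helix-loop-helix factors), the final 3 belonging to factor families that include TLE partners. The ETS core was in the window of 18 of 54 splicing genes (33.3%), against 16.9% of 8158 tested genes and 7.83% of all 27025 genes with a window. The share was uneven by class, with 4 of 10 SR protein genes, 2 of 16 hnRNP genes, 0 of 1 U2AF genes, 3 of 9 snRNP genes and 3 of 11 PRPF genes. In the SF3A and SF3B class it was in 6 of 7 genes. These 6 sites, with the match in capitals and printed along the gene's own strand, show the shared core in different flanks:
Sf3a1: gagggcgggaCCGGAAG
Sf3a2: gcctttgctcCCGGAAGggatcgcttc
Sf3a3: ccccaagacaCTTCCGGgacacgcgga
Sf3b2: gattacgcaaCCGGAAGtttc
Sf3b3: ccggtgggcgCTTCCGGgcttgcgagg
Sf3b6: ggtccgcaatCCGGAAGcgttctggag
They lie at chr11:4160337-4160353, plus strand, at chr10:80798649-80798675, plus strand, at chr4:124714761-124714787, plus strand, at chr19:5295458-5295478, minus strand, at chr8:110847016-110847042, minus strand and chr12:4817528-4817554, plus strand. Sf3b6 holds the core at 2 places, of which 1 is shown. The Sf3a1 and Sf3b2 stretches end at an annotated start, and those of Sf3a3 and Sf3b3 hold the core in reverse complement. Among these genes, on the FPKM without further scaling, Sf3b3 and Sf3a2 lay below all controls, Sf3b2 above, and Sf3a1, Sf3a3 and Sf3b6 overlapped.

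The motifs of TLE partner families were found in few of these windows. The RUNX core was in 4 of 54 genes (7.41%, against 13.1% of tested genes), the TCF/LEF core in 6 (11.1%, against 12.5%) and the E-box in 6 (11.1%, against 10.2%). The sites below are examples, picked among genes described above that hold a match: Prpf40b and Srsf11, with the lowest p-values, and some of the snRNP genes. Prpf4, with the next lowest p-value, and Snrpf held none of the motifs searched. Snrpd2, Snrpd3 and Snrpa1 held only the GC box. Snrpc also holds an ETS core that is not printed. Of the sites printed, Srsf11 and Snrpg hold the ETS core, Prpf40b the E-box, Snrpc the RUNX core and Snrpe the TCF/LEF core:
Srsf11: tggacgcgtaCTTCCGGgatatgggcg
Snrpg: ggcgacgcaaCCGGAAGcgtggctctg
Prpf40b: ggattctgcgCACGTGggggcggggc
Snrpc: tgggggggtcACCACAatttgagaag
Snrpe: gacctcgactTCAAAGagcggttgag
They lie at chr3:158031774-158031800, minus strand, at chr6:86371385-86371411, plus strand, at chr15:99295040-99295065, plus strand, at chr17:27839863-27839888, plus strand and at chr1:133610398-133610423, minus strand. Srsf11, Snrpc and Snrpe hold their motif in reverse complement, Srsf11 at 1 of 2 places. The E-box of Prpf40b is followed by a GC box, which is left in lower case here. A match of letters is a description and not a site of binding, and no binding was measured.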

How the data were processed

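RNA-seq was analysed in 5 libraries of sorted mouse HSCs, 3 control and 2 labelled Tle1/3/4-deficient, grouped by sample title. The authors deposited 1 table of FPKM per gene symbol. TopHat, edgeR and build mm9 are named in the submitters' processing notes, without version, role or order. No source used here gives the annotation, the FPKM program or any filter, nor whether counting used strand. Read totals are unknown. The commonest ratio of values under 0.3 FPKM, found in 8 to 36 genes, put the other libraries at 1.11 to 1.46 times the depth of control replicate 1.

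The 10570 of 11643 genes averaging 1 FPKM or more entered a two-sided limma test (version 3.58.1, R 4.3.3) of group on log2(FPKM + 1), with a trended eBayes prior. Their p-values were adjusted by Benjamini-Hochberg over this whole set at a threshold of 0.05. Differences on this scale understate the change of low genes. The test was checked on simulated data. Named were, per class, the 3 genes of highest mean, the least and most variable among controls, members at an unadjusted p under 0.05, the 12 separated members of largest difference, members under 0.1 FPKM in any library, genes mutated in myeloid disease, close relatives, and the Tle genes as the check of the labels. The remaining members (Srsf10, Hnrnpab, Hnrnpa0, Hnrnpc, Hnrnpd, Hnrnpl, Hnrnpll, Hnrnpr, Hnrnpu, Sf3a1, Sf3a3, Sf3b4, Snrpa1, Snrpc, Snrpd3, Snrpe, Snrpf, Prpf3, Prpf19, Prpf38a and Prpf39) were described after their values were seen. For the other splicing genes the members at an unadjusted p under 0.05 and the most abundant were named. 1 member enters all counts and medians but is not reported here by itself. The members and lists were chosen with earlier results of these data known. Alternatives covered the pseudocount, the filter, scaling, eBayes, weights, the replicate block and leaving out each library. Transcript types, lengths and overlaps came from GENCODE M21 by symbol, copies from BLAST+ 2.17.0, with Python 3.11.15 and pandas 2.3.3.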

Additional observations from a re-analysis of the deposited data

How the results depend on the processing

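No splicing gene passed over all genes under any of the 16 alternatives. The 12 separated splicing genes of largest difference and the 5 other splicing genes at an unadjusted p under 0.05 kept their direction in each. The groups of all these genes do not overlap. Leaving out a library or changing the pseudocount, filter, eBayes or weights therefore could not reverse them, and the kept direction is not evidence of stability. Over the whole table, 2 genes passed as reported. That count was 0 with a pseudocount of 0.1, with no filter and with array weights, 1 with eBayes without trend, 4 with a pseudocount of 5, with median-of-ratios scaling and without on-off genes (an alternative chosen after seeing the data: a library under 0.1 FPKM beside one of at least 10 FPKM), and 5 with robust eBayes. Leaving out 1 library gave 0 to 5. Splicing genes at an unadjusted p under 0.05 numbered 3 as reported, 5 with median-of-ratios scaling or quantile normalization, and 3 to 8 leaving out 1 library, with 8 (0 higher, 8 lower) without deficient-labelled replicate 1 and 5 (3 higher, 2 lower) without replicate 2. With median-of-ratios scaling 2 were higher and 3 lower, and with quantile normalization 0 and 5. As shares of the splicing genes and of all genes tested, these were 7.94% and 8.28% with median-of-ratios scaling, 7.94% and 8.68% with quantile normalization, 12.9% and 10.4% with deficient-labelled replicate 1 left out, and 7.94% and 9.05% with replicate 2 left out. Non-overlapping splicing genes numbered 16 as reported and 22 to 37 leaving out 1 library. The background rises with fewer libraries: without deficient-labelled replicate 1 it was 55.1% of all genes against 59.7% of splicing genes, and without replicate 2 it was 55.5% against 47.6%. The other splicing genes at an unadjusted p under 0.05 numbered 5 as reported, 2 with eBayes without trend, and 6 to 9 leaving out 1 library. The median log2 difference of the splicing genes, -0.16 as reported, ran from -0.31 to 0.063 leaving out 1 library. Replicate numbers 1 and 2 are shared by the groups, but with correlations of deviations from the group means of 0.035 and 0.0069 between same-numbered libraries, and fewer than 3 pairs, they were not taken to pair them. With the replicate block, which leaves 1 residual degree of freedom, 22 genes passed over the whole table, none of them among the 63. Of the 156 other splicing genes, 9 then had an unadjusted p under 0.05, against 7.34% of all genes tested. The median of the splicing genes was -0.21 with the block. The cause of these changes was not tested. With 3 and 2 libraries, counting error cannot be stated because read totals are unknown.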
